A study of Mus musculus with 3 samples.

Results

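The gene bodies described here are those with high H3K36me3 signal at each of 3 stages of pancreas formation in the mouse. They were chosen by their signal in the deposited column headed GB, which had to be at least 0.008 in each of the libraries made on embryonic days E11.5, E13.5 and E15.5. Of 24318 genes with an identifier, 1525 met this, 6.27% of the total. Each identifier is counted as a gene. A pair among the 1525 had the same values in every deposited column. Both identifiers of that pair are in the count, and how many such pairs there are was not determined. Because GB chose these genes, their GB values are given as a description and support nothing by themselves.

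The libraries came from epithelial cells of fetal pancreas of wild-type C57BL/6 mice, sorted by flow cytometry on EpCAM, a surface protein of epithelial cells. Each stage had 1 library made with an antibody against H3K36me3, so 3 libraries in all, whose depth the labels give only as a mean over samples. The design text writes the day of the middle stage slightly differently, and the sample labels were followed. The labels do not say how many embryos were pooled for a library. A test between stages needs more than 1 library each, so none was run, and every difference below is a size in these libraries. The deposited identifiers are Ensembl numbers. The RefSeq table used here holds no Ensembl number for any gene (0 of 49997), so the identifiers could not be looked up, which says nothing of whether RefSeq has these genes. Hence no gene is named, no defining marker of the sorted cells could be checked, and no sequence is printed.

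H3K36me3 is a methyl mark on histone H3. The enzyme SETD2, which travels with elongating RNA polymerase II, lays it down behind the polymerase, so it lies over the bodies of transcribed genes and is sparse at their start sites. The mark recruits proteins that suppress transcription from within the gene and the DNA methyltransferase DNMT3B, among others. In CUT&Tag the antibody brings a transposase to the mark, which cuts and tags the DNA beside it. During these stages the pancreatic epithelium goes from a bud of multipotent progenitors to a branching tree in which acinar, ductal and endocrine cells are set apart.

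The GB value is a mean signal per position over a window of its own length for each gene, read here as the gene body. PR is a mean over 6000 positions and SE a mean over 12000 positions that hold those of PR. All 3 are in the authors' deposited units, and neither headers nor labels say how these were scaled. The part of SE outside PR, another 6000 positions, was computed by subtraction. The headers do not spell out the abbreviations. The windows could nevertheless be set against each other. In genes with a GB window of 500 to under 1500 positions, the summed GB signal never exceeded the summed PR signal (100% of 1097 values), and in windows of 1500 to under 3000 positions it stayed within it in 98.7% of values. From 3000 to under 4000 positions the share was 84.9%, and from 4000 to under 6000 positions 58.4%. The summed SE signal held that of GB in 99.2% of values at 4000 to under 6000 positions, in 86.2% at 6000 to under 8000 and in 65.0% at 8000 to under 10000. Short gene bodies therefore lie inside PR or SE in these files, and PR is close to a separate measurement only for long bodies, of which it can hold a small part.

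The values are built from a smallest step, and 0.008 equals 4.94, 4.78 and 4.91 steps per 100 positions in stage order. Headers and labels do not say what a step stands for. Summed PR above 0 was an even number of steps in 93.0, 92.3 and 95.1% of genes in stage order. At the threshold a body of 6000 positions holds 297, 287 and 295 steps in stage order, and a body of 50000 positions holds 2471, 2389 and 2455. The threshold is not equally strict in the libraries. It was reached by 23.5, 21.2 and 28.6% of genes in stage order, and these shares are the background for the counts that follow.

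Members were mostly genes of short and middling length. A window length could be recovered for 1524 of the 1525, with a median of 13263.5 positions and quartiles of 6451 and 24329. Over all 19653 genes with a length the median was 19358. Membership was highest, at 11.2%, among genes of 6000 to under 20000 positions (694 of 6208). It was 8.90% below 6000 positions (339 of 3809) and 7.52% from 20000 to under 50000 (375 of 4990). Only 2.50% of genes of 50000 positions or more were members (116 of 4646). A single library was reached far more often in the shortest class, by 38.9, 38.6 and 46.9% of genes in stage order, than in the longest, by 9.58, 7.73 and 13.47%. Among genes with a length, the shortest thus reached the threshold in 1 or more libraries most often, but 1484 of them did so in just 1 library and 1120 in 2.

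**Figure D1:**
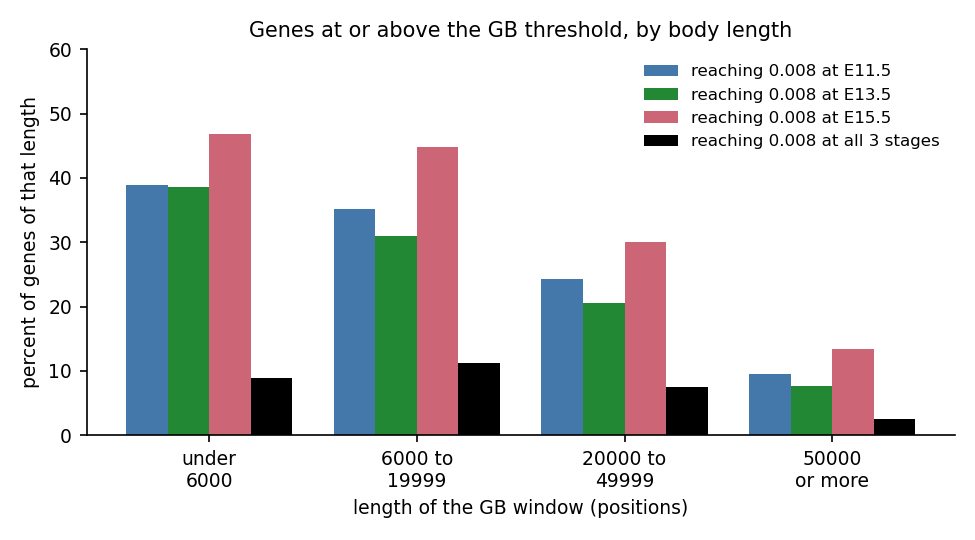
Percent of genes with a recovered length (y axis) whose GB was at least 0.008 in each library (coloured bars) and in all 3 (black bars). The x axis gives 4 classes of GB window length in positions. Reaching the threshold at all 3 stages peaks in genes of 6000 to under 20000 positions, at 11.2%, and is lowest in those of 50000 or more, at 2.50%.

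Many members stood close to the threshold. The lowest of a member's 3 GB values had a median of 0.009998, with quartiles of 0.00886 and 0.0121. It lay between 0.008 and 0.009 in 441 members, and 688 other genes missed by no more, with a lowest value between 0.007 and 0.008. Of the genes with at least 6000 positions, the member nearest the limit had GB of 0.00881, 0.008003 and 0.0176 in stage order, in a body of 41840 positions. The nearest gene on the outside had 0.007999, 0.0121 and 0.0159, in a body of 66302 positions, with an E11.5 value just under the limit. Their lowest values differed far less than the stages of either gene did.

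At the other end, 41 members had GB of at least 0.02 in every library. Of these, 20 had bodies under 6000 positions, 14 had 6000 to under 20000, 5 had 20000 to under 50000 and 2 had more. The highest was a body of only 123 positions, with GB of 0.262, 0.736 and 0.142 in stage order. PR, taken over a far longer window, was 0.0124, 0.0257 and 0.00587 for the same gene.

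Among long bodies the strongest members differed in where along the gene the signal lay. A member of 25870 positions had GB of 0.0594, 0.0473 and 0.0388 in stage order, but PR of only 0.00831, 0.00765 and 0.00331. The outside part of SE was lower still in this gene, at 0.00184, 0.000167 and 0.000162, so that nearly all of its signal fell in neither window. A member of 222160 positions was of the same kind, with GB of 0.0493, 0.0564 and 0.0297 and PR of 0.00766, 0.00352 and 0.

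A body of 20315 positions showed the opposite layout. Its GB was 0.0382, 0.0236 and 0.0277 and its PR 0.000432, 0.00039 and 0.000707, yet the outside part of SE reached 0.128, 0.0798 and 0.0923. Signal that high lies above GB itself and was present in each library. The member of 68803 positions had signal in both windows, with GB of 0.0438, 0.0337 and 0.0310, PR of 0.0165, 0.0493 and 0.0644 and an outside part of 0.101, 0.0580 and 0.0640.

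In other strong long bodies PR lay nearer to GB. A member of 21064 positions had GB of 0.0318, 0.0326 and 0.0446, PR of 0.0226, 0.0124 and 0.0222 and an outside part of 0.0261, 0.0158 and 0.0428. In a member of 64055 positions GB hardly differed between stages, at 0.0165, 0.0165 and 0.0176, while PR was 0.0215, 0.00407 and 0.0134. A member of 83185 positions was higher at E15.5, with GB of 0.0154, 0.019998 and 0.0399 and PR of 0.0156, 0.00918 and 0.0403.

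Whether high signal carries over to a library that did not choose the genes was read by leaving each library out of the rule in turn. Genes at or above 0.008 at E11.5 and E13.5 numbered 2384, and 64.0% of them also reached it at E15.5, against 28.6% of all genes. Of 2946 genes chosen at E11.5 and E15.5, 51.8% reached it at E13.5, against 21.2%. Of 2764 chosen at E13.5 and E15.5, 55.2% reached it at E11.5, against 23.5%. Each share in the unused library was well above that of all genes, by a factor of 2.23, 2.45 and 2.35 in the order given, and many chosen genes fell short there.

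Among genes with a recovered length, carrying over depended on the length of the body. Recovering a length needs GB above 0 in at least 2 libraries. Chosen genes meet this by choice, and its effect on the shares of all genes was not measured. Below 6000 positions the chosen genes reached the threshold little more often than all genes of that length. The share was 46.2% against 38.9% at E11.5, 44.9% against 38.6% at E13.5 and 52.2% against 46.9% at the last stage. From 50000 positions up it was 53.5% against 9.58%, 49.6% against 7.73% and 69.0% against 13.47%. Bodies of 20000 to under 50000 positions lay between in contrast, with 62.6% against 24.3%, 56.3% against 20.5% and 67.3% against 30.1%. Among genes with a recovered length, the contrast between chosen genes and all genes of their class thus grew with length in each library.

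The levels in the unused library tell the same. In bodies of at least 20000 positions, median GB of the chosen genes was 0.00897 at E11.5, against 0.00472 for all genes of that length, and 0.00843 against 0.00466 at E13.5. At the last stage it was 0.0106 against 0.00439. These medians, each of a different set of chosen genes (816, 900 and 725), sat at percentiles 88.0, 87.7 and 87.7 of their length class. Under 6000 positions the medians sat at percentiles 57.5, 56.0 and 57.5 of the genes with a recovered length. At E15.5 the lower quartile of the chosen short genes was 0, although all of them had reached the threshold at both earlier stages.

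**Figure D2:**
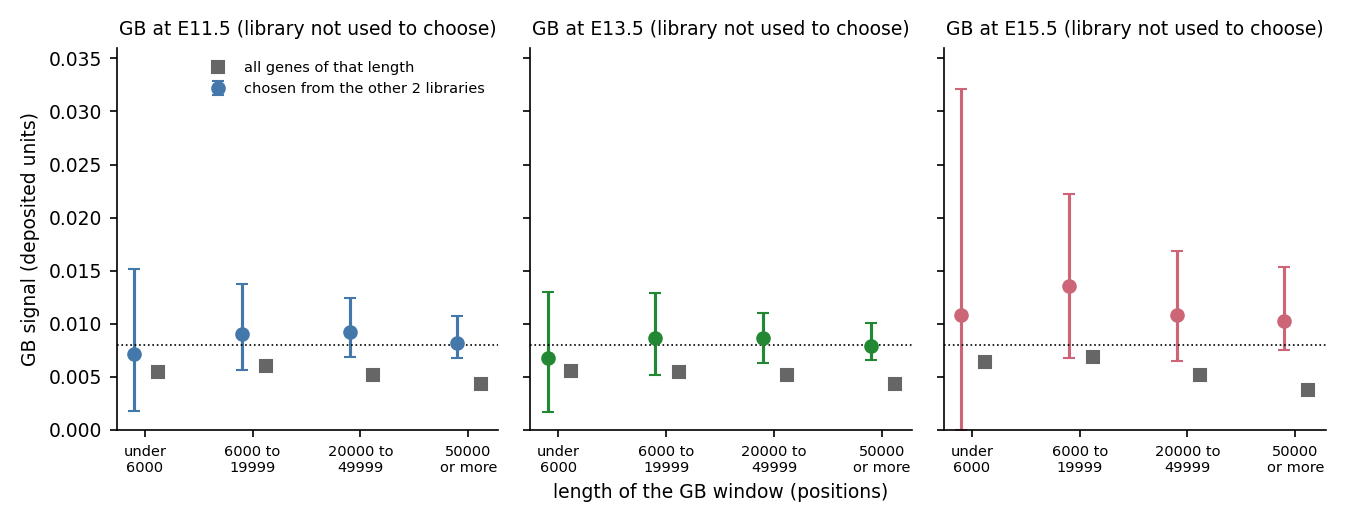
GB in the library that was not used to choose the genes (y axis, deposited units), by GB window length in positions (x axis). Circles are medians and bars quartiles of genes at or above 0.008 in the other 2 libraries. Squares are medians of all genes with a recovered length in that class, and the dotted line is 0.008. In bodies of 50000 positions or more the chosen medians are 0.00822, 0.00795 and 0.0102 in stage order, against 0.00434, 0.00429 and 0.00380.

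The PR window of these genes was read in the same way, in the unused library. Median PR of the chosen genes was 0.00658 at E11.5, against 0.00394 for all genes, and 0.00592 against 0.00368 at E13.5. At E15.5 it was 0.0146 against 0.00559 for all. PR of at least 0.008 was found in 41.7% of the chosen genes at E11.5 (all genes 26.3%), in 36.2% at E13.5 (22.9%) and in 65.2% at the last stage (44.3%). Over bodies from 20000 positions, where PR shares few positions with GB, median PR was 0.00556 against 0.00378, 0.00580 against 0.00357 and 0.0139 against 0.00733. PR was thus higher over genes with high bodies at every stage. Its percentiles in that length class, 62.5, 66.9 and 66.1, were below those of GB.

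The outside part of SE was also higher in the unused library. With bodies of at least 20000 positions its median in the chosen genes was 0.00592 at the first stage and 0.00574 at the second, against 0.00324 and 0.00327 for all genes of that length. At E15.5 it was 0.00516 against 0.000978. The outside part was at 0 in 7.43, 11.46 and 32.6% of all genes of that length in stage order, and in 2.08, 4 and 16.0% of the chosen genes.

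Within the 1525 members themselves PR and SE are shown as they are, with the reminder that short bodies share these positions with GB. Median PR was 0.00847, 0.00804 and 0.0213 in stage order, against 0.00394, 0.00368 and 0.00559 over all genes. Median SE was 0.00928, 0.00846 and 0.0173, against 0.00448, 0.00416 and 0.00592. PR reached 0.008 in 817, 765 and 1249 members in stage order, that is in 53.6, 50.2 and 81.9% of them. The outside part of SE reached it in 820, 770 and 885 members in stage order, which is 53.8, 50.5 and 58.0% (all genes 24.4, 22.5 and 28.5%).

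The rule did not use PR, but over members of all lengths PR is not free of it, because short bodies can lie inside PR. PR was at least 0.008 in every library in 384 members, 25.2% (all genes 5.12%). PR stayed below 0.008 in every library in 91 members, 5.97% (all genes 36.8%), and below 0.004 in every library in 17 members, 1.11% (all genes 17.6%). A PR of 0 in at least 1 library was found in 71 members, 4.66% (all genes 32.3%). Of the 491 members with bodies of at least 20000 positions, PR was at least 0.008 at every stage in 70, or 14.3%, against 3.47% of all genes of that length.

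**Figure D3:**
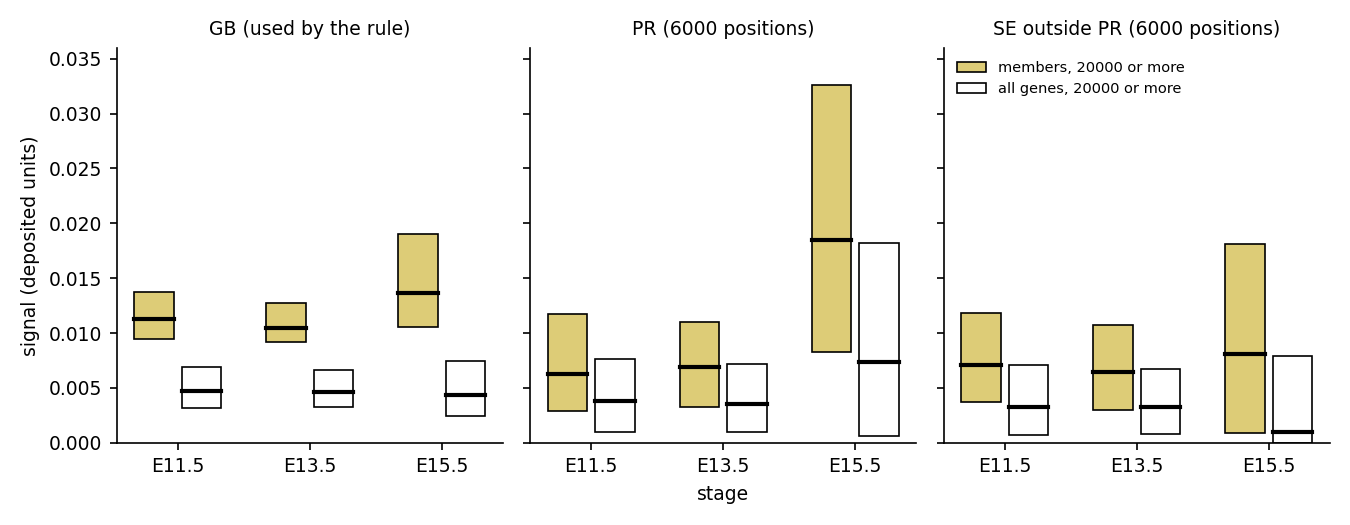
Signal (y axis, deposited units) in GB, PR and the part of SE outside PR at each stage (x axis), for bodies of at least 20000 positions. Boxes span the quartiles and heavy lines are medians, for 491 members (filled) and 9636 genes in all (open). GB chose the members. Median PR of members is 0.00631, 0.00686 and 0.0185 in stage order, against 0.00378, 0.00357 and 0.00733.

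The balance of PR and GB within a library does not depend on how libraries were scaled. In members with bodies of at least 20000 positions the median ratio of PR to GB was 0.560, 0.616 and 1.19 in stage order. The rule selects high GB, which lowers this ratio in the libraries it used. In the unused library the ratio was 0.621, 0.686 and 1.23, against 0.748, 0.743 and 1.46 in all genes of that length. PR exceeded GB in 29.5, 31.8 and 57.5% of the chosen genes and in 40.2, 39.2 and 57.5% of all. Genes with high bodies thus had proportionally less signal in PR than other genes at the earlier stages, and at E15.5 the share with PR above GB was the same in both although the median ratio was lower in the chosen genes.

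Between stages, GB of a member differed by a median factor of 1.88 from its lowest to its highest library. The factor was 2.81 in bodies under 6000 positions, 1.91 from 6000 to under 20000, 1.59 from 20000 to under 50000 and 1.45 above. The smallest was 1.01 and the largest 55.1. As deposited, E15.5 was the highest of the 3 in 995 members, 65.2%, E11.5 in 314 (20.6%) and E13.5 in 216 (14.2%). Of the 22480 genes with any GB signal, 37.3% were highest at E15.5, 33.0% at E11.5 and 29.7% at E13.5. These shares move with the scaling between libraries, which is unknown. With each library divided by its median, E15.5 was highest in 75.7% of members and 43.1% of those genes. As deposited, the lowest value fell at E13.5 in 712 members (46.7%), at E11.5 in 600 (39.3%) and at E15.5 in 213 (14.0%). The genes with any GB signal gave 32.5, 30.7 and 36.8% in that order. The rule leaves out genes with low GB in any library, which bears on the shares of members.

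**Figure D4:**
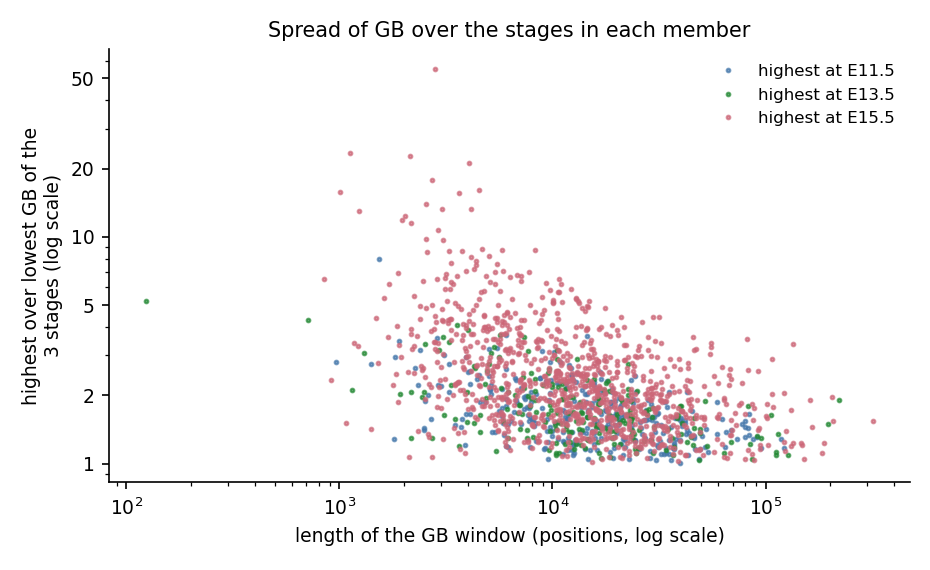
Highest over lowest GB of the 3 stages (y axis, log scale) against the length of the GB window in positions (x axis, log scale), 1 point for each of 1524 members. Colours give the stage with the highest GB. The spread narrows with length, from a median of 2.81 below 6000 positions to 1.45 at 50000 or more.

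Sizes of change were taken as log2 of the later over the earlier value, after adding 0.001 to both. A gene was counted where the higher value was at least 0.004, and it was called higher or lower from 2-fold. GB of members was level from E11.5 to E13.5, with a median log2 ratio of -0.06. Here 63 members were called higher and 89 lower, 4.13 and 5.84% of 1525 (all genes 17.0 and 19.2%). The rule keeps GB high at both ends and so keeps these shares low. From E13.5 to E15.5, 422 members were called higher and 21 lower, 27.7 and 1.38% (all genes 27.2 and 22.1%), with a median of 0.52. From E11.5 to E15.5 the counts were 395 and 32, 25.9 and 2.10% (all genes 26.2 and 22.9%), with a median of 0.45. In both comparisons with E15.5 the share called higher was near that of all genes. The share called lower was below it, and the rule keeps that share low.

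GB at the last stage against the first can be read free of the choice in genes chosen at E13.5 alone. Of 4376 such genes above the floor, 32.0% were at least 2-fold higher at E15.5 than at E11.5 and 20.5% lower, with a median log2 ratio of 0.35. For bodies from 50000 positions up the shares were 14.0% higher and 5.60% lower of 357, with a median of 0.19, whereas all 3104 genes of that length above the floor gave 6.51 and 8.80%, with a median of -0.06. Long bodies high at the middle stage were thus more often higher than lower at E15.5, and long bodies at large were not. How the libraries were scaled to each other is unknown, and the direction against 0 rests on that scaling. GB was also spread more widely at E15.5. Over all genes of at least 50000 positions its quartiles were 0.00237 and 0.00593, against 0.00308 and 0.00604 at E11.5. What part of the difference goes with that spread was not tested.

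PR was called higher, and also lower, more often than GB in each comparison, in members and in all genes. The rule bounds GB of members from below. It does not use PR, but where a short body lies inside PR it also holds PR up. The shares over members of all lengths carry this limit, and the windows differ in length. From E11.5 to E13.5, 298 members were called higher in PR and 364 lower of 1422 (all genes 28.7 and 32.7%), with a median log2 ratio of -0.13. From E13.5 to E15.5, 890 were higher and 120 lower of 1470, that is 60.5 and 8.16% (all genes 52.0 and 24.8%). From E11.5 to E15.5, 844 were higher and 133 lower of 1479, that is 57.1 and 8.99% (all genes 49.9 and 26.1%). The median log2 ratios with E15.5 were 1.34 and 1.26. All genes gave 1.11 and 0.99. With each library divided by its own median, 43.2% of members were higher and 13.1% lower from E13.5 to E15.5, and all genes gave 40.1 and 30.9%. From E11.5 to E15.5 that scaling gave 44.5 and 13.4% in members and 40.8 and 31.1% in all genes. The 2 comparisons with E15.5 share that library. Under both scalings more genes at large had higher than lower PR at E15.5, and members differed from them more in the share with lower PR than in the share with higher PR.

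E15.5 was among the libraries used to choose members. In 4374 genes chosen at E13.5 alone, 52.1% had PR at least 2-fold higher at E15.5 than at E11.5 and 20.9% lower. These shares lie nearer to those of all genes. With bodies of at least 50000 positions they were 60.3 and 17.0% of 335, against 55.5 and 23.0% of all 3509 genes of that length above the floor.

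**Figure D5:**
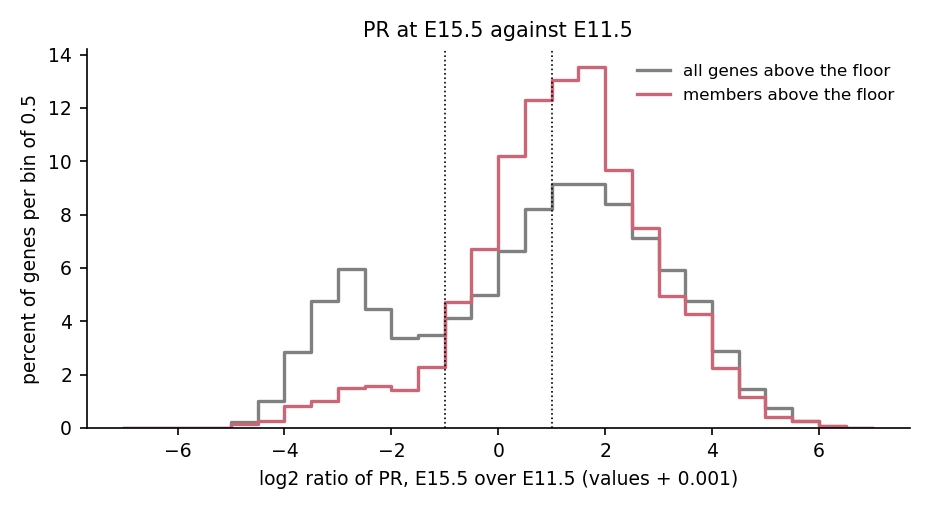
Percent of genes (y axis) per bin of the log2 ratio of PR at E15.5 over E11.5 (x axis, after adding 0.001), for members and for all genes above the floor. Dotted lines mark 2-fold. Members have few genes on the left, with 8.99% at least 2-fold lower against 26.1% of all genes.

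The largest differences in PR are given by identifier. ENSMUSG00000001440, with a body of 28183 positions, had PR of 5.33e-05, 0.00608 and 0.0831 in stage order, while its GB was 0.0169, 0.00866 and 0.0185. ENSMUSG00000062825, with 2809 positions, had PR of 0.00610, 0.0307 and 0.429 and GB of 0.0115, 0.0337 and 0.635, so that both columns were highest at E15.5. It is also the member with the largest spread of GB over the stages. Among those lower at E15.5, ENSMUSG00000100632 (17048 positions) had PR of 0.0280, 0.00441 and 5.5e-05 and GB of 0.0192, 0.0137 and 0.0274. ENSMUSG00000060029 (19959 positions) had PR of 0.0247, 0 and 5.5e-05 and GB of 0.0118, 0.0135 and 0.00852. In 3 of these 4 genes PR thus went from near 0 to high, or the reverse, while GB differed between stages by less than the upper quartile of members, a factor of 2.65.

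The order of GB was compared between libraries over genes that the rule had not narrowed. Spearman correlations over all 24318 genes were 0.43 for the first pair of neighbouring stages, 0.41 for the later pair and 0.42 for the outer stages. Over the 9636 genes with at least 20000 positions they were 0.59, 0.50 and 0.51. Within the 1525 members they were 0.22, 0.28 and 0.27, over a range of GB that the rule narrows. For PR, which the rule did not use, they were 0.13, 0.09 and 0.12 in members and 0.22, 0.23 and 0.24 over all genes. The points of a pair share their windows. The correlation of length with GB was -0.33, -0.31 and -0.46 in members in stage order, -0.21, -0.21 and -0.15 in members of at least 20000 positions, and -0.11, -0.10 and -0.12 over all 19653 genes with a length.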

How the data were processed

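H3K36me3 was measured by CUT&Tag in 3 libraries, 1 per stage. Bowtie2 2.4.2 and the genome build mm10 are listed per the submitters' processing notes. Filters, counting, scaling between libraries and gene models: not given in the sources used here. Each deposited file has 25493 rows with 3 columns of signal made by the authors. The 1175 rows without an identifier (4.61%) were left out, and 2 rows have no SE. Files were joined on the identifier.

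GB window lengths were worked out from the values: the smallest number of positions, up to 500000, that makes every sum above 0 a whole multiple of its library's step (0.162, 0.167 and 0.163 in stage order) with 2 decimals was taken. Where 2 or more sums were odd multiples of the step, 2 times that number was taken if it was also a solution. Genes with 2 values above 0 were searched to 50000. The 4665 genes with fewer values or no solution have no length. On 2000 simulated windows with GB values drawn from members, 96.5% of lengths were exact. Genes with lower GB, or with only 2 values above 0, were not simulated. Among the 4646 longest (50000 positions up), 34.0% match some RefSeq gene length of GRCm38.p6 exactly, and 4.15% do after a shift. For the 116 members of that length these shares were 29.3 and 5.17%. Shorter lengths were not compared in this way.

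The naming rule (members of 27 gene lists, the strongest members and those with the largest differences in PR) was not applied in full. The gene lists could not be used without names. For the differences in PR, 2 identifiers per direction are given of the 6 that the rule asks for. Members, lists, pseudocount and floor were chosen with earlier results of these data known. Reading each stage in genes chosen from the other libraries, with its length classes, and the all-gene values under the other scaling were added after seeing the data. No test was run. Depth of the files is unknown, so no interval for counting error is given. Python 3.11.15, NumPy 2.4.6, pandas 2.3.3 and matplotlib 3.10.9 were used.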

Additional observations from a re-analysis of the deposited data

How the results depend on the processing

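The 23 results were recomputed 142 times in all: 107 values lay within 1.5 times the reported one and 35 lay beyond. With 1 library per stage, spread between embryos was not measured, and the depth is unknown. No paired analysis was possible because there is 1 library per stage. Counts by gene list were not run for lack of names.

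The number of members, 1525, was 3212 at a threshold of 0.006, 762 at 0.010 and 491 among bodies from 20000 positions. Leaving the first, middle or last library out of the rule gave 2764, 2946 and 2384. It was 1450 with GB divided by each library's median. Median PR of members over that of all genes at E15.5, 3.81, became 2.53 from 20000 positions and 2.22 with means. The share of chosen genes reaching the threshold at E13.5 over that of all genes, 2.45, became 3.801 in bodies of at least 20000 positions.

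Percentages of members here are higher then lower. For PR from E11.5 to E13.5 (main 21.0 and 25.6%) a pseudocount of 0.005 gave 11.7 and 15.0% and 3-fold gave 11.3 and 14.4%. From E13.5 to E15.5 lower PR (8.16%) became 5.03% with that pseudocount and 13.1% with each library divided by its median. For GB from E11.5 to E13.5 (4.13 and 5.84%) it was 1.84 and 2.89% with a pseudocount of 0.005, 11.9 and 17.2% at 1.5-fold, 0.525 and 0.918% at 3-fold and 2.36 and 3.29% in bodies from 6000 positions. From E13.5 to E15.5 GB (27.7 and 1.38%) gave 47.2 and 5.57% at 1.5-fold and 11.7 and 0.197% at 3-fold. Lower GB was 0.459% with a pseudocount of 0.005 and 0.590% with division by the median. From E11.5 to E15.5 (25.9 and 2.10%) it gave 42.8 and 6.69% at 1.5-fold and 11.2 and 0.262% at 3-fold, and lower GB was 0.590% and 0.787% under those last settings. Fold limits and pseudocounts move counts by construction, and other causes were not tested.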

Other observations

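The rows without an identifier were used in no comparison. Of these 1175 rows, GB was at least 0.008 in 14.2, 12.8 and 22.1% in stage order, against 23.5, 21.2 and 28.6% of the identified genes.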
